A study of Mus musculus with 6 samples.

Results

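The collagen chain genes are the genes whose protein products wind around each other in trimers to make the collagens. They were taken from the deposited count table by name, as every protein-coding gene whose symbol is Col, a type number, a and a chain number, and 44 of the 56748 genes in the table fitted this description. RNA was measured in 6 libraries of wild-type mouse primary stromal cells, 3 from cells cultured for 48 h on collagen carrying ACLP (col1-ACLP) and 3 from cells cultured on collagen alone (col1). The donors were C57BL/6 mice of both sexes, 12 weeks old. Their gonadal white fat gave the stromal vascular fraction, a mixture of the cells of fat other than mature adipocytes, which went straight onto hydrogels of 12 kPa stiffness. Every gel carried type I collagen applied at 0.05 mg/mL. In the col1-ACLP group 30 nM recombinant aortic carboxypeptidase-like protein (ACLP), a secreted collagen-binding protein encoded by Aebp1, was present while the collagen polymerized, and in the col1 group it was left out. The labels do not say how many mice each library holds or whether the replicates were separate animals.

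Collagens differ in what they build. Fibrillar collagens, above all types I and III, form the banded fibrils that bear tension in connective tissue, and type V collagen joins type I in the same fibrils and limits their width. Fibril-associated collagens with interrupted triple helices (FACITs) sit on the fibril surface, type IV collagen makes the sheet-like network of basement membranes, and type VI collagen makes beaded filaments around cells, including those of fat. In fat, fibroblast-like stromal cells and their progenitors are a main source of the fibrillar collagens, and type IV collagen is laid down around adipocytes and vessels. The chains of the main fibrillar collagens are made as longer procollagens that are hydroxylated, folded with the help of chaperones, trimmed at their ends and finally crosslinked outside the cell.

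The 44 genes comprised 11 fibrillar, 9 fibril-associated, 9 network, 6 beaded, 4 transmembrane, 2 multiplexin, 1 anchoring fibril and 2 other chains. The filter on low counts passed 37 of them, among 17717 tested genes. The 7 that it left out were Col11a1 of the fibrillar class, Col9a1, Col9a2 and Col19a1 of the FACITs, Col10a1 of the network class, Col25a1 of the transmembrane class and Col26a1. Their highest value in any library was the 24 counts of Col11a1 in the second col1-ACLP library. Of these, Col9a1, Col9a2, Col10a1 and Col11a1 are best known as cartilage chains.

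Positions are those in the table, read as GRCm39. The chains whose levels changed lie on several chromosomes. Col1a1 is at chr11:94827050-94843868 and Col1a2 at chr6:4504814-4541544. Col5a1 is at chr2:27776437-27929526, Col5a3 at chr9:20681346-20726363 and Col12a1 at chr9:79506273-79626113. Col5a2, at chr1:45413481-45542442, lies tail to tail with Col3a1 at a distance of 24614 bases. Col6a5, at chr9:105733277-105837842, is the middle gene of a run of type VI genes on 1 strand, 27917 bases from Col6a6 and 28810 bases from Col6a4. Col4a1 and Col4a2 stand head to head on chromosome 8 and overlap by 22 bases, and Col4a3 and Col4a4 stand head to head with 71 bases between them.

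Promoter sequence from RefSeq (its table is built on GRCm38.p6) was matched by symbol for 35 of the 44 genes, Col1a1, Col5a2 and Col12a1 not among them. The stretches printed here belong to chains that passed a significance threshold: the type I chain Col1a2, the type V chains Col5a1 and Col5a3, and the type VI chain Col6a5, which went the other way. Each is the part of the 250 bases before the RefSeq start that no GENCODE vM39 exon covers, placed on GRCm39 by an exact match that occurred at 1 place in its chromosome. Capitals mark matches, on either strand, to CCAAT (bound by NF-Y), TATAAA (the TATA box), GGGCGG (the GC box of Sp1), CAGAC (a Smad motif), GGAATG (a TEAD motif) and the CArG box of serum response factor. A CArG box can contain TATAAA or CCAAT. None of the other motifs contains another. The Col1a2 stretch is chr6:4505370-4505492 (plus strand), that of Col5a1 chr2:27776187-27776396 (plus strand), that of Col5a3 chr9:20726419-20726613 (minus strand) and that of Col6a5 chr9:105837859-105838092 (minus strand). The Col1a2 stretch lies inside the gene as placed in the count table, where it starts at 4504814, and ends 126 bases before the RefSeq start. The other stretches lie upstream of their genes as placed there. Left out with the exon-covered bases were a CCAAT of Col1a2, a CAGAC of Col5a1 and a GGGCGG of Col5a3.
Col1a2: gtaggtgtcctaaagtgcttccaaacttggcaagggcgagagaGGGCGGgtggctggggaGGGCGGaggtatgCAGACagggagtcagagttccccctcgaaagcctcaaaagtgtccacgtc
Col5a1: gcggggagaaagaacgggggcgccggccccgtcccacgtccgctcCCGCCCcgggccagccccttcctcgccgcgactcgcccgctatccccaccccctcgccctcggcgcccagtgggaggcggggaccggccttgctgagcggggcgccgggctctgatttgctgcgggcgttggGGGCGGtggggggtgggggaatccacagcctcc
Col5a3: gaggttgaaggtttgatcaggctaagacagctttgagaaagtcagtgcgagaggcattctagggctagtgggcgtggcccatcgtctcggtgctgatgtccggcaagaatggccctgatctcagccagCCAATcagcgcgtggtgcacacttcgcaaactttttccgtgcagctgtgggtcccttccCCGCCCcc
Col6a5: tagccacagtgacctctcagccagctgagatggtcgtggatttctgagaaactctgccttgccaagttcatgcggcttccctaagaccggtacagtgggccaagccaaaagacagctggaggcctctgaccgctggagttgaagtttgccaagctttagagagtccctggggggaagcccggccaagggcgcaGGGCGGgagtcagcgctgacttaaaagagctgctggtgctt
GGGCGG was present in all 4 stretches, in 2 copies in those of Col1a2 and Col5a1 and in 1 copy in those of Col5a3 and Col6a5. Over the whole 250 bases GGGCGG occurred in 21 of the 35 collagen promoters (60.0%) and in 32.9% of 27025 promoters of the same length. CCAAT was found in 34.3% of the collagen promoters and 34.5% of all promoters, and TATAAA in 14.3% of the collagen promoters and 13.0% of all. CAGAC was found in 40.0% of the collagen promoters and 42.1% of all, GGAATG in 8.6% of the collagen promoters and 12.6% of all, and the CArG box in 2.9% of the collagen promoters and 1.4% of all. A match is a run of letters and was not tested for binding.

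Library totals ranged from 33343651 to 47142754 counts, so that 3 counts, taken as the floor for detection, correspond to 0.062 to 0.089 CPM (counts relative to library size, with TMM factors). Stromal markers were present in every library, but their summed level was lower on col1-ACLP, at 4077 to 4375 CPM in col1-ACLP and 5781 to 6103 CPM in col1 cultures over 7 genes. Most of this gap lay in Dcn (1481 ± 60.31 CPM on col1-ACLP and 2202 ± 287.5 CPM on col1) and Ly6a (1345 ± 84.00 CPM on col1-ACLP and 2161 ± 148.9 CPM on col1, SD, n = 3 each). Ly6a and Cd34 were lowered, and Dcn passed the adjusted p with a fold below the threshold. Thy1 was lower in every col1-ACLP library (30.13 ± 1.461 CPM on col1-ACLP and 41.60 ± 6.247 CPM on col1) without passing the test. Pdgfra (894.5 ± 132.7 CPM on col1-ACLP and 983.1 ± 41.67 CPM on col1) and Lum (97.73 ± 7.343 CPM on col1-ACLP and 99.65 ± 12.08 CPM on col1) overlapped. Pdgfrb was higher in every col1-ACLP library (240.7 ± 28.82 CPM on col1-ACLP and 196.7 ± 12.57 CPM on col1) without passing the test. Summed markers of the following other cell types overlapped between the groups. Endothelial markers reached 851.1 to 1040 CPM on col1-ACLP and 933.2 to 1105 CPM on col1, and macrophage markers 586.3 to 669.3 CPM on col1-ACLP and 585.1 to 720.4 CPM on col1. Mural cell markers reached 224.1 to 312.5 CPM on col1-ACLP and 207.1 to 225.0 CPM on col1, a narrow overlap. Abcc9 (41.47 ± 12.27 CPM on col1-ACLP and 27.78 ± 3.381 CPM on col1), Kcnj8 and Cnn1 were higher in every col1-ACLP library. So were 10.2% of all tested genes. The other mural markers overlapped, and none passed the test. Mesothelial markers reached 261.9 to 294.0 CPM on col1-ACLP and 250.2 to 350.6 CPM on col1. Among them Upk3b was lowered. Krt8 (55.37 ± 5.65 CPM on col1-ACLP and 80.02 ± 6.776 CPM on col1) passed the adjusted p with a fold below the threshold. Adipocyte markers reached 256.4 to 376.5 CPM on col1-ACLP and 330.4 to 450.8 CPM on col1. Schwann cell and lymphocyte markers overlapped too and stayed under 25 CPM in every library. Markers listed for epididymal epithelium, a tissue that adjoins gonadal fat in males, summed to 16.19 to 22.74 CPM on col1-ACLP and 27.33 to 32.53 CPM on col1, without overlap. Most of this sum lay in Epcam (7.722 ± 0.988 CPM on col1-ACLP and 10.59 ± 0.2401 CPM on col1) and Cdh1. Cdh1, at 9.267 ± 3.183 CPM on col1-ACLP and 14.28 ± 2.028 CPM on col1, overlapped between the groups. Lcn5 and Rnase10 were lower without overlap but stayed under 3 CPM in every library, and none of these genes passed the test. Ms4a1 and Defb21 had 0 counts in every library. The 18S rRNA share of counts was 0.527% ± 0.0499 on col1-ACLP and 0.281% ± 0.0403 on col1 (SD, n = 3 each). The mitochondrial share was 3.018%, 6.139% and 3.946% on col1-ACLP, against 2.907%, 3.135% and 4.273% on col1. These groups overlapped, and the second col1-ACLP library was the highest. The part of these differences in the collagen results was not tested, and in bulk RNA fewer cells of a type and less RNA per cell cannot be told apart.

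Cells on col1-ACLP had higher levels of several chains of type I and type V fibrils and a lower level of 1 type VI chain. Of the 37 tested genes, 4 were raised (10.8%, against 0.660% of all tested genes): Col1a1, Col5a1, Col5a2 and Col12a1. A single gene, Col6a5, was lowered (2.70%, against 0.722% of all tested genes). These calls use edgeR's quasi-likelihood test with Benjamini-Hochberg adjustment over all tested genes, and need both an adjusted p under 0.05 and a log2 fold change beyond 0.58 in either direction. At the adjusted p alone 7 of 37 passed (18.9%, against 2.05% of all tested genes), and 15 of 37 had an unadjusted p under 0.05 (40.5%, against 14.9%). The median log2 fold change of the 37 was 0.21, and that of all tested genes was 0.01. The log2 fold change was above 0 in 25 of 37 (67.6%, against 51.1%). In 16 genes the values of both groups stood apart, 11 of them higher (29.7%, against 10.2%) and 5 lower on col1-ACLP (13.5%, against 10.2%).

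**Figure D1:**
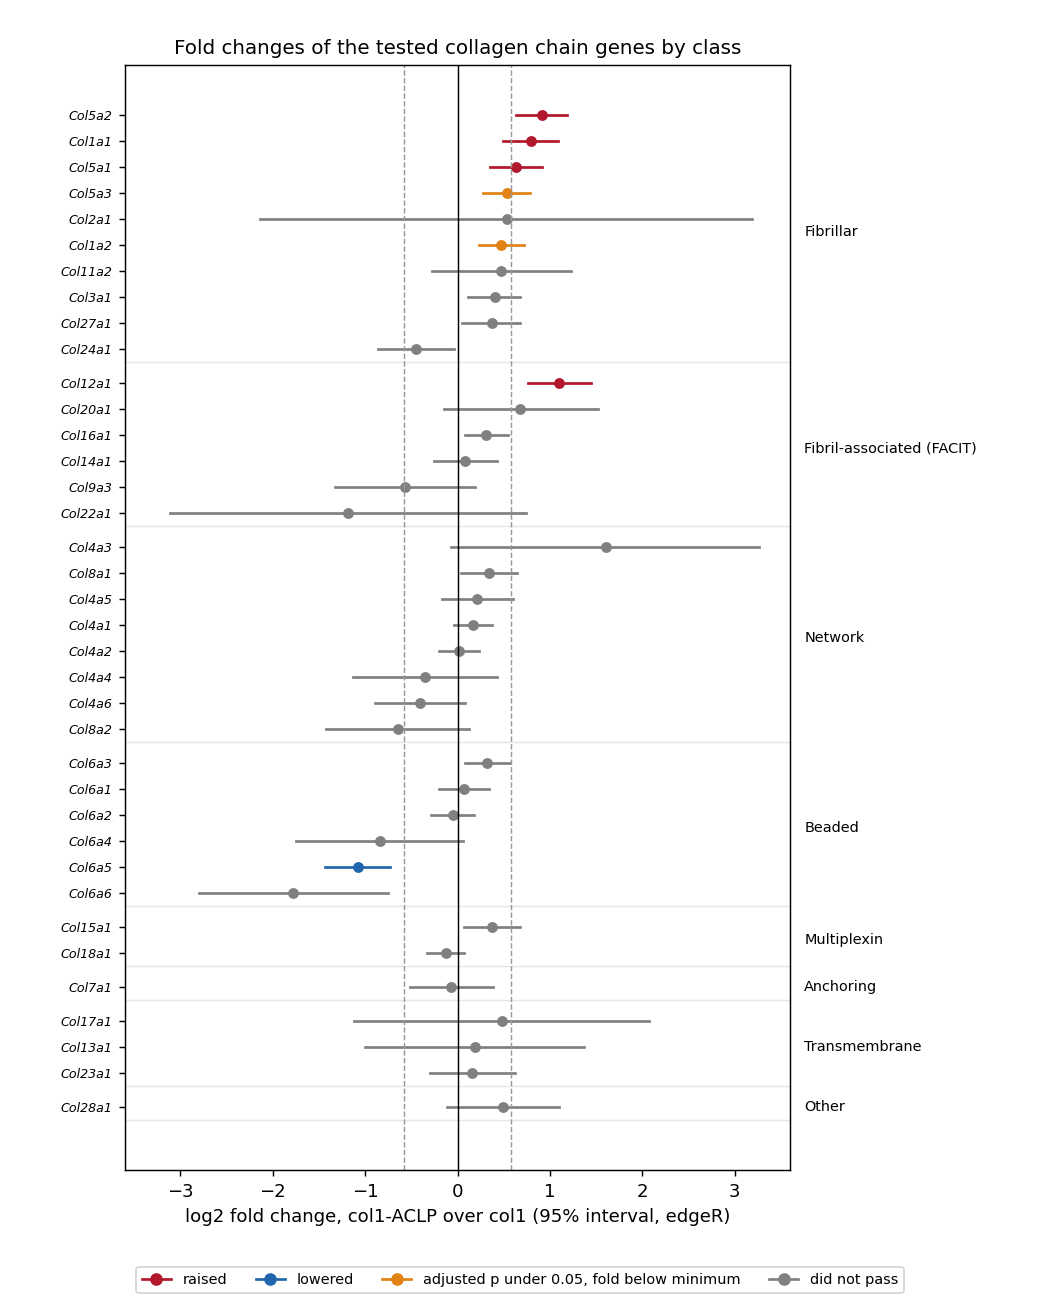
Log2 fold change, col1-ACLP over col1, of the 37 tested collagen chain genes, with the 95% interval from edgeR, arranged by class. Points are coloured by call, and dashed lines mark a log2 fold change of 0.58 in either direction. Of the 10 fibrillar chains 9 lie above 0, and 4 of the 6 beaded chains lie below 0.

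Among the fibrillar chains, 3 of 10 tested genes were raised, 2 more passed the adjusted p with a smaller fold and 0 were lowered, with a class median of 0.50. Over all tested genes 0.660% were raised and 2.05% passed the adjusted p. Col1a1 encodes the α1 chain that makes up most of type I collagen, the bulk fibril protein of connective tissue. It had 10471, 6780 and 8819 CPM in the col1-ACLP libraries, against 6045, 4637 and 4383 CPM in the col1 libraries. Every col1-ACLP library was above every col1 library, with the second col1-ACLP and the first col1 library closest to each other. The log2 fold change was 0.79 ± 0.14 (SE), a 1.73-fold higher level (edgeR adjusted p = 0.006332). Its partner Col1a2, the α2 chain of the same trimer, had 7066, 5016 and 5931 CPM on col1-ACLP, against 4752, 4203 and 4007 CPM on col1. Here too the groups did not overlap, but the change of 0.47 ± 0.11 (1.39-fold, adjusted p = 0.03984) fell short of the fold threshold, and its adjusted p was 0.06087 when libraries were scaled by their totals alone and 0.05233 with upper-quartile scaling. Without the second col1-ACLP library Col1a2 passed both thresholds (0.59, adjusted p = 0.007681). It lost the adjusted p without the first (0.1051) or the third (0.1178) col1-ACLP library and without the second (0.1191) or the third (0.1852) col1 library.

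Type V collagen, which starts type I fibrils and sets their width, is built from the products of Col5a1, Col5a2 and Col5a3. Col5a2 had 1491, 984.2 and 1104 CPM on col1-ACLP, against 674.0, 659.2 and 577.6 CPM on col1. The lowest col1-ACLP library stood well above the highest col1 library, and the change of 0.91 ± 0.13 (1.87-fold, adjusted p = 0.001119) was the second largest among the called chains that rose. Col5a1 had 960.7, 619.9 and 721.1 CPM on col1-ACLP, against 541.9, 456.8 and 487.4 CPM on col1 (0.63 ± 0.13, 1.55-fold, adjusted p = 0.01852). This call was the least firm: it was lost without the first col1-ACLP library (0.43, adjusted p = 0.05731), without the third col1-ACLP library (0.67, 0.05293), without the second col1 library (0.56, 0.07767) and without the third col1 library (0.61, 0.08779). Col5a3, the α3 chain found in some type V trimers, had 456.3, 339.1 and 363.2 CPM on col1-ACLP, against 292.2, 242.2 and 266.4 CPM on col1. The groups did not overlap, and the change of 0.53 ± 0.12 (1.45-fold, adjusted p = 0.02439) stayed below the fold threshold, except without the second col1-ACLP library (0.62, adjusted p = 0.0145) or the first col1 library (0.60, adjusted p = 0.03255), where both thresholds were passed. It lost the adjusted p without the first (0.09544) or the third (0.07114) col1-ACLP library and without the second (0.1074) or the third (0.1128) col1 library.

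**Figure D2:**
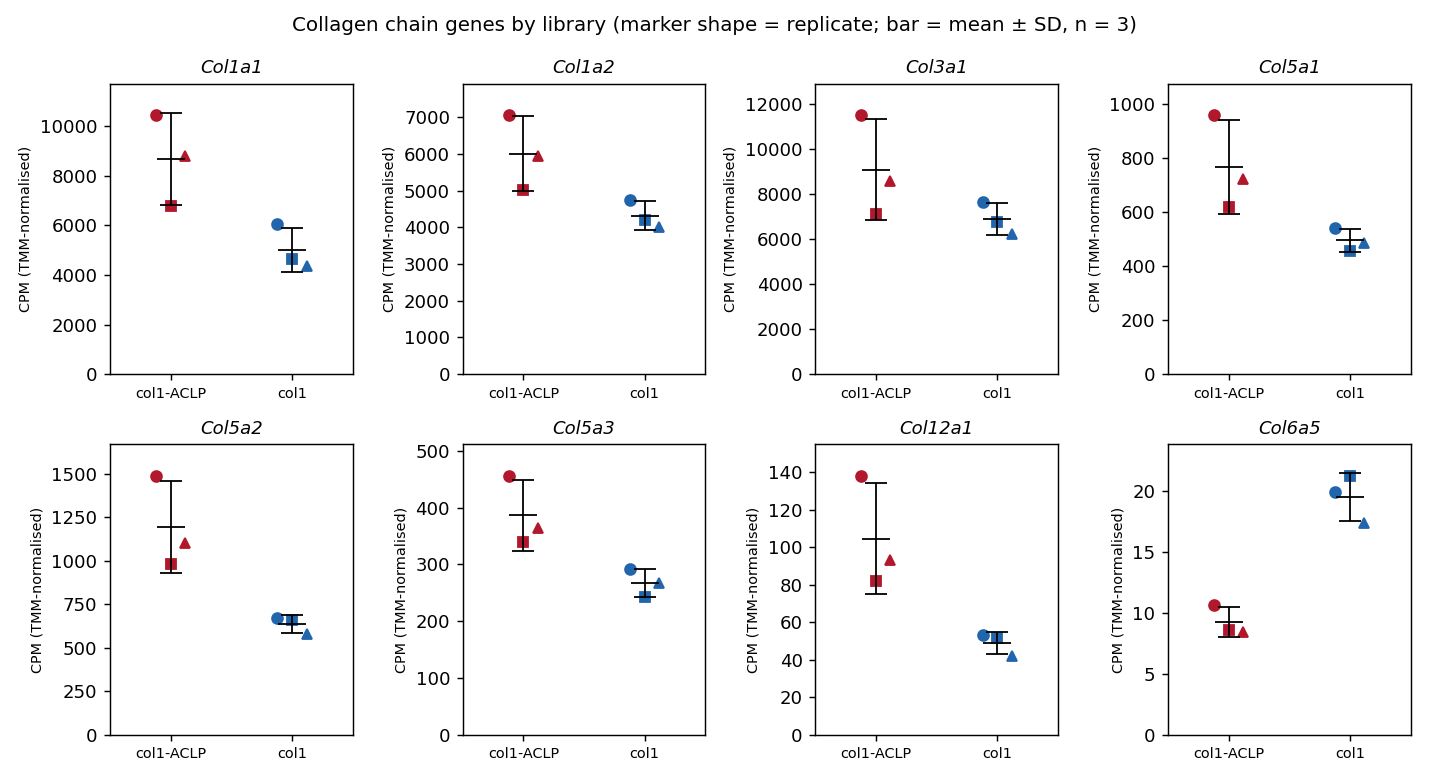
CPM (TMM-normalised) of 8 collagen chain genes in each library, col1-ACLP left and col1 right in each panel, with marker shape for replicate number and bars for mean ± SD (n = 3 each). The groups are apart in 7 panels, all but that of Col3a1, whose second col1-ACLP library (7117 CPM) lies below the first col1 library (7652 CPM). The first col1-ACLP library is the highest of 6 in every panel but that of Col6a5.

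Col3a1, the only chain of type III collagen, a partner of type I in pliable tissue, had 11521, 7117 and 8568 CPM on col1-ACLP, against 7652, 6774 and 6233 CPM on col1. The groups overlapped and the change did not pass (0.40 ± 0.14, 95% interval 0.11 to 0.68, adjusted p = 0.1593). The minor fibrillar chains Col27a1 (35.26 ± 3.016 CPM on col1-ACLP and 27.33 ± 5.507 CPM on col1, SD, n = 3 each) and Col24a1 (7.684 ± 1.394 CPM on col1-ACLP and 10.46 ± 1.264 CPM on col1) gave log2 fold changes of 0.37 and -0.45 that did not pass. The cartilage chains Col2a1 (0 to 0.489 CPM on col1-ACLP, 0 to 0.354 CPM on col1) and Col11a2 (2.08 to 3.29 CPM on col1-ACLP, 1.39 to 2.34 CPM on col1) were close to the floor or low and did not pass.

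Among the FACITs, 1 of 6 tested genes was raised and 0 were lowered, against 0.660% raised and 0.722% lowered of all tested genes. Col12a1 encodes type XII collagen, which bridges type I fibrils and is abundant in tissue under load. It had 138.2, 82.25 and 93.37 CPM on col1-ACLP, against 53.09, 51.58 and 42.14 CPM on col1. The groups were clearly apart, and the log2 fold change of 1.10 ± 0.16 (2.14-fold, adjusted p = 0.001373) was the largest of the called collagen chains. Its share of the summed collagen chain level (counts per kilobase) was higher in every col1-ACLP library, with 0.192% ± 0.0172 on col1-ACLP and 0.130% ± 0.0116 on col1 (SD, n = 3 each, exact permutation p = 0.1, the smallest that 3 against 3 can give). The FACIT with the highest level per kilobase was Col16a1, a minor chain of the fibril surface in skin, with 159.5, 142.9 and 136.6 CPM on col1-ACLP, against 131.9, 107.9 and 113.6 CPM on col1. These groups did not overlap, but the change did not pass (0.31 ± 0.11, adjusted p = 0.1714). Col14a1, which like Col12a1 binds the surface of fibrils, was at 77.20 ± 24.62 CPM on col1-ACLP and 72.79 ± 5.243 CPM on col1 (0.08 ± 0.16, adjusted p = 0.8784). Col9a3, Col20a1 and Col22a1 stayed under 4 CPM in every library and did not pass.

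Among the network chains, 0 of 8 tested genes passed the adjusted p, against 2.05% of all tested genes, and 1 had an unadjusted p under 0.05, against 14.9%. Col4a1 and Col4a2 encode the common chains of basement membrane collagen, and Col4a1 had the highest level per kilobase of the class. It had 1009, 851.3 and 861.4 CPM on col1-ACLP, against 833.2, 773.0 and 816.1 CPM on col1 (0.17 ± 0.10, 95% interval -0.04 to 0.37, adjusted p = 0.4575). Col4a2 had 637.1, 545.5 and 585.3 CPM on col1-ACLP, against 631.8, 532.5 and 587.2 CPM on col1 (0.01 ± 0.10, 95% interval -0.20 to 0.23, adjusted p = 0.9744). Both intervals lie below the threshold of 0.58 that the called fibrillar chains exceeded. Col4a3, a chain of kidney and lung basement membranes, showed the largest rise that did not pass: 0.877, 0.793 and 2.17 CPM on col1-ACLP, against 0.504, 0.707 and 0.0469 CPM on col1 (1.60 ± 0.79, adjusted p = 0.3622). At 2 counts in the third col1 library it was below the floor there, and an overlapping antisense gene had 36.5% as many counts. Col8a1 and Col8a2 encode the short chains of type VIII collagen, a product of vessel walls. Col8a1 was at 25.44, 25.58 and 25.01 CPM on col1-ACLP, against 17.13, 22.80 and 20.07 CPM on col1 (0.34 ± 0.14, adjusted p = 0.2648), and Col8a2 at 2.11, 1.07 and 2.58 CPM on col1-ACLP, against 3.20, 2.87 and 2.93 CPM on col1 (-0.65 ± 0.36, adjusted p = 0.4367). The groups did not overlap for either gene and lay in opposite directions. Col4a4, Col4a5 and Col4a6 overlapped between the groups.

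In the beaded class 0 of 6 tested genes were raised and 1 was lowered, against 0.660% raised and 0.722% lowered of all tested genes. Type VI collagen is assembled from α1, α2 and α3 chains, and α4, α5 or α6 can stand in for α3. The common chains were abundant and none passed: Col6a1 had 575.7, 415.1 and 400.5 CPM on col1-ACLP, against 481.1, 422.0 and 422.3 CPM on col1 (0.07 ± 0.13, 95% interval -0.20 to 0.34, adjusted p = 0.8664). Col6a2 had 538.8, 445.7 and 443.6 CPM on col1-ACLP, against 556.4, 450.6 and 476.2 CPM on col1 (-0.05 ± 0.11, -0.29 to 0.18, adjusted p = 0.8846). Col6a3, whose product also releases the adipose peptide endotrophin, had 705.2, 542.4 and 506.2 CPM on col1-ACLP, against 469.2, 440.7 and 491.2 CPM on col1, without overlap but short of the test (0.32 ± 0.12, adjusted p = 0.1863). Each of the α3-like chains was lower in every col1-ACLP library than in every col1 library, as were 10.2% of all tested genes. Of these chains only Col6a5 passed the test. Col6a5 had 10.63, 8.608 and 8.444 CPM on col1-ACLP, against 19.86, 21.24 and 17.36 CPM on col1, and was lowered (-1.08 ± 0.16, 0.47-fold, adjusted p = 0.001744). Its highest col1-ACLP value was well under its lowest col1 value.

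Col6a6 had 1.00, 0.317 and 0.978 CPM on col1-ACLP, against 3.08, 3.04 and 1.73 CPM on col1. This was the largest fall that did not pass (-1.78 ± 0.49, adjusted p = 0.07355), and it passed with DESeq2 (adjusted p = 0.01914), without the filter on low counts (0.01893) and with a filter at 1 CPM in 3 libraries (0.04664). Col6a4 had 1.03, 1.72 and 0.787 CPM on col1-ACLP, against 2.37, 2.19 and 1.83 CPM on col1 (-0.84 ± 0.43, adjusted p = 0.3805). The α3-like chains are neighbours on chromosome 9 and are expressed far below the common type VI chains: Col6a5 averaged 0.980 CPM per kilobase on col1-ACLP and 2.07 CPM per kilobase on col1, and Col6a1 106 CPM per kilobase on col1-ACLP and 101 CPM per kilobase on col1.

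The remaining classes had 0 raised and 0 lowered genes, against 0.660% raised and 0.722% lowered of all tested genes. Tested here were only 2 multiplexin, 1 anchoring fibril, 3 transmembrane and 1 other chain. These are too few to read the counts as a result about the classes. Col15a1 and Col18a1 encode multiplexins, basement membrane collagens that can release antiangiogenic fragments. Col15a1 had 265.6, 179.3 and 178.7 CPM on col1-ACLP, against 182.5, 146.6 and 153.7 CPM on col1 (0.37 ± 0.14, adjusted p = 0.2151), while Col18a1 had 192.7, 194.5 and 191.0 CPM on col1-ACLP, against 219.0, 209.2 and 204.4 CPM on col1 (-0.13 ± 0.09, adjusted p = 0.5758). Col15a1 overlapped between the groups and Col18a1 did not. The anchoring fibril chain Col7a1 had 10.60, 6.592 and 7.168 CPM on col1-ACLP, against 9.812, 8.260 and 7.519 CPM on col1 (-0.07 ± 0.21, adjusted p = 0.9253). Of the transmembrane chains Col23a1 was highest per kilobase, with 10.10, 9.220 and 9.802 CPM on col1-ACLP, against 7.915, 6.283 and 11.83 CPM on col1 (0.16 ± 0.22, adjusted p = 0.808). Col13a1 and Col17a1 stayed under 2 CPM in every library and did not pass. Col28a1 had 6.567, 4.123 and 3.693 CPM on col1-ACLP, against 3.676, 4.015 and 2.530 CPM on col1 (0.49 ± 0.29, adjusted p = 0.4629). In all of these except Col18a1 the groups overlapped.

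Collagen transcripts took a large share of the libraries. Together the 44 genes held 3.65%, 2.39% and 2.87% of all counts on col1-ACLP, against 2.40%, 2.08% and 1.96% on col1, and Col1a1, Col1a2 and Col3a1 alone held 2.35% ± 0.529 on col1-ACLP and 1.64% ± 0.205 on col1 (SD, n = 3 each). The means of the whole share, 2.97% ± 0.632 on col1-ACLP and 2.14% ± 0.231 on col1, differed by 0.825 percentage points, with the second col1-ACLP library marginally below the first col1 library (exact permutation test, two-sided, p = 0.2). Without the first col1-ACLP library the difference was 0.487 points.

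The fibrillar class held more of the collagen chain level in every col1-ACLP library. With counts divided by gene length and summed over all chains, fibrillar chains made up 85.48%, 82.80% and 85.49% of the collagen chain level on col1-ACLP, against 80.92%, 79.99% and 78.34% on col1. The difference of the means, 84.6% ± 1.55 on col1-ACLP and 79.8% ± 1.30 on col1, was 4.84 points, and the groups did not overlap (exact permutation p = 0.1). Network chains made up 6.38% ± 0.726 on col1-ACLP and 8.42% ± 0.735 on col1, and beaded chains 6.05% ± 0.652 on col1-ACLP and 8.16% ± 0.427 on col1. Multiplexins made up 1.72% ± 0.191 on col1-ACLP and 2.24% ± 0.0979 on col1, and FACITs 1.15% ± 0.0809 on col1-ACLP and 1.30% ± 0.0320 on col1 (exact permutation p = 0.1 for each). Because the shares add up to a whole, a higher fibrillar share lowers the others even where their own levels are alike. Of the 6 main fibrillar chains taken separately, it was Col1a1 (37.3% ± 1.59 on col1-ACLP and 30.7% ± 1.97 on col1) and Col5a2 (3.50% ± 0.148 on col1-ACLP and 2.68% ± 0.196 on col1) whose shares were higher in every col1-ACLP library, while Col3a1 had 25.9% ± 1.21 on col1-ACLP and 28.3% ± 0.719 on col1.

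**Figure D3:**
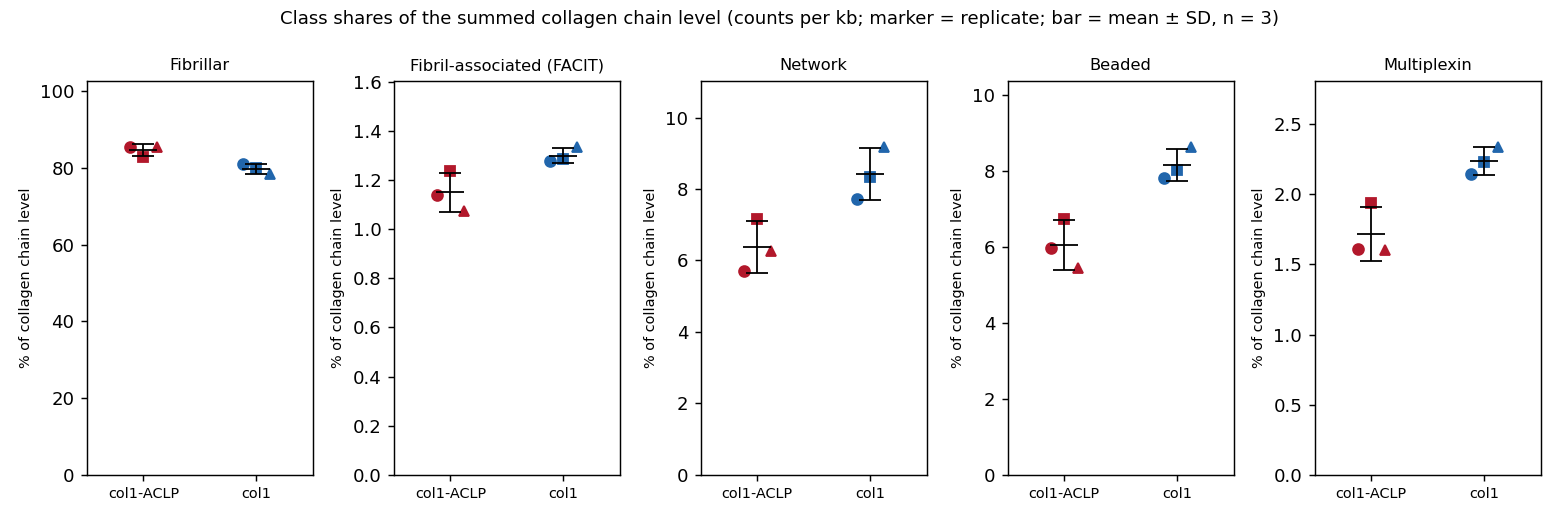
Share of the summed collagen chain level (counts per kilobase of gene length, in percent) held by 5 classes in each library, col1-ACLP left and col1 right, with marker shape for replicate number and bars for mean ± SD (n = 3 each). The fibrillar share is higher in every col1-ACLP library (82.8% to 85.5%) than in every col1 library (78.3% to 80.9%), and the other classes shown are lower. Each panel has its own scale, starting at 0.

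Chains of the same collagen type were compared in pairs, and Col3a1 was set against Col1a1. None of these comparisons could pass 0.05. Ratios were taken within each library, as the log2 ratio of counts, and 7 pairs were compared by exact permutation tests (two-sided), where 3 against 3 libraries cannot give a p below 0.1. Col1a1 over Col1a2 was 0.57, 0.43 and 0.57 on col1-ACLP, against 0.35, 0.14 and 0.13 on col1, a difference of 0.32 without overlap (exact permutation p = 0.1, adjusted over the pairs 0.1167). Col5a1 over Col5a2 was -0.63, -0.67 and -0.61 on col1-ACLP, against -0.31, -0.53 and -0.24 on col1. This ratio was lower in every col1-ACLP library (difference -0.28). Col3a1 over Col1a1 was 0.14, 0.07 and -0.04 on col1-ACLP, against 0.34, 0.55 and 0.51 on col1 (difference -0.41), again without overlap.

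Col4a1 over Col4a2, whose genes start from a shared promoter region, was 0.66, 0.64 and 0.56 on col1-ACLP, against 0.40, 0.54 and 0.47 on col1 (difference 0.15). Col6a3 over Col6a1 was 0.29, 0.39 and 0.34 on col1-ACLP, against -0.04, 0.06 and 0.22 on col1 (0.26). Col8a1 over Col8a2 differed most, at 3.59, 4.59 and 3.28 on col1-ACLP, against 2.42, 2.99 and 2.78 on col1 (1.09). All of these pairs had groups that did not overlap, an exact permutation p of 0.1 and an adjusted p of 0.1167. The pair Col6a1 over Col6a2 overlapped, at 0.10, -0.10 and -0.15 on col1-ACLP, against -0.21, -0.09 and -0.17 on col1 (difference 0.11, exact permutation p = 0.3, adjusted p = 0.3).

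**Figure D4:**
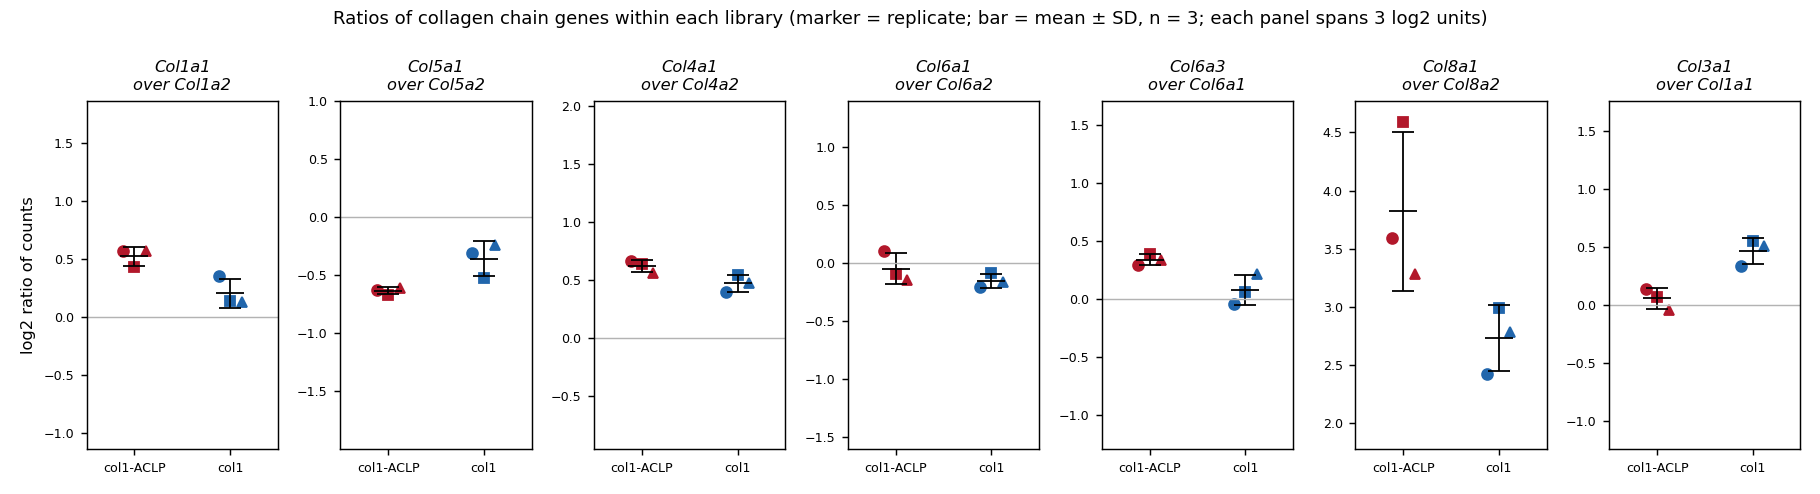
Log2 ratio of counts for 7 pairs of collagen chain genes in each library, col1-ACLP left and col1 right, with marker shape for replicate number and bars for mean ± SD (n = 3 each). Every panel spans 3 log2 units around its own mean. The groups are apart in 6 pairs and overlap for Col6a1 over Col6a2.

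Levels of different chains can be compared only per unit of length, and the length used decides the order at the top. With the gene lengths in the table Col1a1 was highest, at 1324 CPM per kilobase on col1-ACLP and 765.2 on col1, followed by Col3a1 at 923.9 on col1-ACLP and 701.5 on col1 and by Col1a2 at 483.2 on col1-ACLP and 347.7 on col1. With the length of the canonical GENCODE transcript the order was Col3a1 (1630 ± 403.4 CPM per kilobase on col1-ACLP and 1238 ± 128.7 on col1), Col1a1 (1465 ± 311.7 on col1-ACLP and 846.8 ± 150.9 on col1) and Col1a2 (1121 ± 191.6 on col1-ACLP and 806.2 ± 72.06 on col1), all SD with n = 3. Taken within each library on this length, the ratio of Col3a1 to Col1a1 was 1.173, 1.119 and 1.036 on col1-ACLP. It was 1.349, 1.557 and 1.515 on col1, so that Col3a1 was above Col1a1 in every library. Of these, the lengths differ most for Col1a2, 12426 bases in the table and 5359 in the canonical transcript, against 6563 and 5930 for Col1a1. On the canonical length the ratio of Col1a1 to Col1a2 per kilobase was 1.34, 1.22 and 1.34 on col1-ACLP, against 1.15, 0.997 and 0.989 on col1. With the gene lengths in the table the mean ratio was 2.727 on col1-ACLP and 2.19 on col1. Whether Col1a1 lies above Col1a2 in the col1 libraries thus depends on the length used. The fibrillar share was then 87.8% ± 1.24 on col1-ACLP and 84.3% ± 0.992 on col1, again without overlap. Fold changes of a single gene do not depend on length.

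Libraries of the same group differed as well. The first col1-ACLP library was the highest of all 6 in 18 of the 37 tested chains (48.6%). The same count was not made over all tested genes, so it is not read as a trait of these chains. Leaving out each library in turn kept the calls of Col1a1 (log2 fold change 0.63 to 0.94), Col5a2 (0.71 to 1.03), Col12a1 (0.84 to 1.24) and Col6a5 (-1.19 to -1.02). The largest adjusted p among them was 0.04712, for Col1a1.

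Of 35 genes for the enzymes, chaperones and other factors that act on procollagen, 33 were tested, 1 was raised and 0 were lowered, 2 more passed the adjusted p with a smaller fold, and 11 had an unadjusted p under 0.05 (median log2 fold change 0.17). Over all tested genes 0.660% were raised, 2.05% passed the adjusted p and 14.9% had an unadjusted p under 0.05. Lox, the lysyl oxidase that crosslinks collagen and elastin, had 1940, 1475 and 1727 CPM on col1-ACLP, against 690.6, 969.6 and 972.0 CPM on col1 (0.97 ± 0.13, 1.95-fold, adjusted p = 0.0006474). Plod2, the lysyl hydroxylase that prepares the crosslink sites at chain ends, was at 409.5 ± 35.21 CPM on col1-ACLP and 296.2 ± 37.71 CPM on col1 (SD, n = 3 each, 0.47 ± 0.11, edgeR adjusted p = 0.03636). Creb3l1, a transcription factor known to act on Col1a1 in bone, was at 502.1 ± 51.47 CPM on col1-ACLP and 363.6 ± 23.99 CPM on col1 (0.47 ± 0.10, edgeR adjusted p = 0.02461). Neither kept the adjusted p in every fit without 1 library, with values of up to 0.1249 for Plod2 and 0.1665 for Creb3l1. The prolyl hydroxylase P4ha1, at 723.0 ± 99.62 CPM on col1-ACLP and 543.7 ± 35.82 CPM on col1, missed the threshold (0.41 ± 0.11, edgeR adjusted p = 0.06195). Serpinh1, which encodes the procollagen chaperone HSP47, was abundant, at 3692 ± 318.1 CPM on col1-ACLP and 3657 ± 364.2 CPM on col1 (0.01 ± 0.10, 95% interval -0.20 to 0.22).

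Of 16 collagen receptor genes 15 were tested, 0 were raised and 0 lowered in edgeR, and 3 had an unadjusted p under 0.05 (median 0.14), against 14.9% of all tested genes. The closest was Itga11, the α11 subunit of a collagen-binding integrin of fibroblasts, with 32.13, 16.49 and 22.62 CPM on col1-ACLP, against 16.45, 11.01 and 12.32 CPM on col1 (0.84 ± 0.21, adjusted p = 0.05057). It passed with DESeq2 (adjusted p = 0.009156) and with limma-voom (0.04995). It did not pass with library totals alone, upper-quartile scaling or TMM without the collagen genes. Of the edgeR fits that left out a library, it passed only in that without the second col1-ACLP library. In these fits the log2 fold change was 0.56 to 1.05 and the adjusted p reached 0.2663. The partner subunit of Itga11, Itgb1, was at 885.9 ± 45.91 CPM on col1-ACLP and 766.3 ± 70.06 CPM on col1 (0.21 ± 0.10, edgeR adjusted p = 0.3329). The collagen receptor kinase Ddr2 was at 325.4 ± 67.40 CPM on col1-ACLP and 333.9 ± 11.34 CPM on col1 (-0.04 ± 0.12, edgeR adjusted p = 0.9329). Aebp1, the cells' own gene for the added protein, was at 894.1 ± 168.2 CPM on col1-ACLP and 742.7 ± 62.53 CPM on col1 (0.27 ± 0.12, edgeR adjusted p = 0.3079).

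Over the 6 libraries the genes whose log2 CPM followed that of Col1a1 most closely, among 11198 genes above 5 CPM, were Lrrc17 (Pearson r = 0.994), the matrix glycoprotein gene Sparc (0.993), the secretory pathway pseudokinase gene Fam20a (0.993), the small proteoglycan gene Bgn (0.990) and the amino acid transporter gene Slc7a5 (0.990). Among the collagen chains Col1a2 came closest (r = 0.99), followed by Col5a1 (0.97), Col5a3, Col12a1 and Col5a2 (0.96 each) and Col3a1 (0.92). These values describe 6 libraries that share the difference between the groups and are given without a test.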

How the data were processed

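For 6 polyA RNA-seq libraries the authors deposited raw gene counts in 1 table, from reads mapped with HISAT2. The submitters' notes name mm10 and the study's methods GRCm39, and 100.00% of the table's genes found in GENCODE vM39 (56017 of 56748) lay on the same chromosome, 92.01% with a start within 1000 bases. Coordinates were read as GRCm39. The counting program, its strand setting and its treatment of reads with several hits are not given in the sources used. Col20a1, Col10a1, Col4a3, Col9a3, Col14a1, Col25a1 and Col26a1 overlap other genes with at least 30.3% as many counts and are uncertain. Col4a1 and Col4a2 overlap each other by 22 bases, and 68.2% and 147% as many counts lay in the overlapping partner.

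Columns were assigned by the names that the labels quote, with 0 other per-sample columns. The labels do not say whether replicates were separate cultures or animals, so the spread behind each p-value is that between libraries and may be technical. Replicates differed beyond sampling noise (chi-square per degree of freedom 24.55 to 70.08). Same-numbered libraries did not deviate together (correlations -0.02, -0.01 and -0.03).

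Counts were filtered with filterByExpr (minimum count 10, minimum total 15), scaled by TMM and tested with edgeR 4.0.16 in R 4.3.3 (quasi-likelihood, two-sided, group only, Benjamini-Hochberg over all tested genes). The study used DESeq2, run here (1.42.0) as an alternative, as were limma-voom (3.58.1), other scalings and filters, a replicate block and leaving out each library. Floors cover counting error only. Full statistics are given for chains past a threshold, the highest chain per class, both chains of each ratio and the largest rise and fall that did not pass. Other chains and genes are named for completeness. The members, the 2 gene lists and the marker lists were chosen with earlier results of these data known.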

Additional observations from a re-analysis of the deposited data

How the results depend on the processing

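Of the collagen chains, the same 4 were raised under DESeq2, limma-voom, DESeq2 size factors, library totals alone, upper-quartile scaling, both other filters, a replicate block and TMM without the collagen genes. The lowered count was 2 (Col6a5 and Col6a6) with DESeq2, without the filter on low counts and with a filter at 1 CPM in 3 libraries. Leaving out each library in turn gave 3 to 6 raised chains, and calling at the adjusted p alone, chosen after seeing the data, gave 6. Among all tested genes, 200 were raised without the filter on low counts, and leaving out a library gave 68 to 166 raised and 71 to 123 lowered genes. With DESeq2, without the filter and with the filter at 1 CPM, 2 collagen biosynthesis genes were raised (Lox and Loxl3), and leaving out a library gave 1 to 2. The collagen receptor count was 1 (Itga11) under DESeq2, limma-voom, DESeq2 size factors, both other filters and the replicate block, and 0 to 1 when a library was left out. With the replicate block, 4 collagen chains were raised and 1 lowered, and over all genes 101 were raised and 93 lowered. The sign-flip version of the ratio tests kept every difference, with an exact p of 0.25 (0.5 for Col6a1 over Col6a2).

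Signs near 0 depended on scaling for Col4a2 (-0.02 with library totals alone, -0.01 with upper-quartile scaling) and for Serpinh1 (-0.02 and -0.01). Library totals alone moved the median of all genes to -0.03. Leaving out a library gave -0.06 to 0.07 for Col4a2, -0.16 to 0.04 for Col6a2, -0.12 to 0.16 for Col6a1, -0.20 to 0.26 for Col14a1, -0.31 to 0.06 for Col7a1, -0.04 to 0.44 for Col23a1, -0.08 to 0.49 for Col13a1, -0.57 to 0.84 for Col17a1, -0.20 to 1.44 for Col2a1, -0.04 to 0.10 for Serpinh1 and -0.21 to 0.08 for Ddr2, none past the threshold. Why these values moved was not tested. The ratio of collagen chains and the shares cannot pass 0.05 with 3 libraries a group. Among genes with 1 to 20 counts 66.4% to 69.5% of counts were even, against 49.6% to 51.1% above 1000 counts, which limits the precision of chains with low counts. The sources used do not say whether both reads of a pair were counted. If they were, low counts and the floor of 3 counts stand for fewer fragments than their number.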
